A study of Mus musculus with 32 samples.

Results

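Semaphorins are guidance ligands, and plexins and neuropilins are their receptors. Every gene of the deposited table whose symbol begins with Sema3 to Sema7, Plxna, Plxnb, Plxnc or Plxnd, or is Nrp1 or Nrp2, was taken, which gave 26 of 17586 genes. They were 4 secreted semaphorins, 11 transmembrane semaphorins, 9 plexins and 2 neuropilins. Of the secreted class the table held only Sema3a, Sema3c, Sema3d and Sema3e, and it held no Sema7 gene. RNA came from cells sorted out of mouse brain into 4 populations of 8 libraries each. The genes were taken by symbol alone, but the family was chosen with earlier results of these data known. Differentiated macrophages, undifferentiated macrophages and microglia of the tumour were taken from immunocompetent chimeric mice with an intracranial implant of GL-261, a mouse glioma line. Normal microglia came from wild-type mice of both strains named next, labelled Nil, with no tumour and no graft. Each population had 4 libraries of C57BL/6J mice (WT in the following) and 4 of Pep3/CD45.1 mice. Grafts were written as PEP-3 into WT or WT into PEP-3 for the tumour populations, and for them the strain is that of the recipient. Ages, the conditioning before grafting and how the sort was gated are not stated in the labels. Nothing in the labels ties the libraries to separate animals, and the spread behind each p-value may thus be partly technical.

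Secreted class 3 semaphorins signal mostly through neuropilins, which bind the ligand, and A-type plexins, which carry the signal into the cell. Transmembrane semaphorins of classes 4, 5 and 6 bind plexins without a neuropilin, and can also act as receptors themselves. The family is best known for steering axons and blood vessels, and several members also act on the migration and activation of myeloid cells. Neuropilins bind growth factors of the VEGF family as well.

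The values were signed scores of unstated scale in which every gene averaged 0 over all libraries. A score of 0 is therefore the mean of that gene and says nothing of its abundance, so levels of different genes were not compared and no fold changes are given. Every difference is a fitted difference of scores ± 1 standard error, for 8 libraries against 8. Calls were made with limma at an adjusted p below 0.05 over all 17586 genes. Sequencing depth is unknown. The table lacked 11 sample directions of variation, and 9 libraries kept under 50% of their own variation: normal microglia 10, 18, 26 and 1, tumour microglia 27, differentiated macrophages 28 and 31, and undifferentiated macrophages 29 and 8. Library medians averaged 0.29 ± 0.17 (SD, n = 8) in differentiated macrophages, 0.29 ± 0.12 in undifferentiated macrophages, -0.33 ± 0.20 in tumour microglia and -0.14 ± 0.18 in normal microglia. Between macrophages and tumour microglia, all markers but Plac8 in differentiated macrophages followed the labels of the cells. All 8 microglia markers, P2ry12 and Tmem119 among them, were lower in differentiated and in undifferentiated macrophages than in tumour microglia, and 7 and 8 of 8 markers of monocyte-derived macrophages were higher. In tumour relative to normal microglia Tmem119 differed by -1.08 ± 0.29, and the macrophage markers Plac8 and Vim by 2.58 ± 0.62 and 1.24 ± 0.41, all called. The other 7 microglia and 6 macrophage markers were not called there.

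Most of the family was higher in tumour macrophages than in tumour microglia. Among differentiated macrophages 19 of 26 members rose and 2 fell relative to tumour microglia. In the same comparison 37% of all genes rose and 6.35% fell (43.4% in either direction), so that a rise was common in the whole table. Undifferentiated macrophages gave 18 members higher and 2 lower, where 36.7% of all genes rose and 5.19% fell (41.9% in either direction). The median difference of the members was 1.65 in differentiated and 1.63 in undifferentiated macrophages relative to tumour microglia, and that of all genes was 0.65 and 0.71. Both comparisons use the same 8 tumour microglia libraries, which also enter the comparison with normal microglia below. After the median of each library had been subtracted, 13 members were higher and 2 lower in differentiated macrophages than in tumour microglia, with 19.8% of all genes higher and 19.2% lower. The same step gave 12 higher and 2 lower in undifferentiated macrophages, with 16.7% of all genes higher and 16.3% lower. No called member changed direction under that centring.

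**Figure D1:**
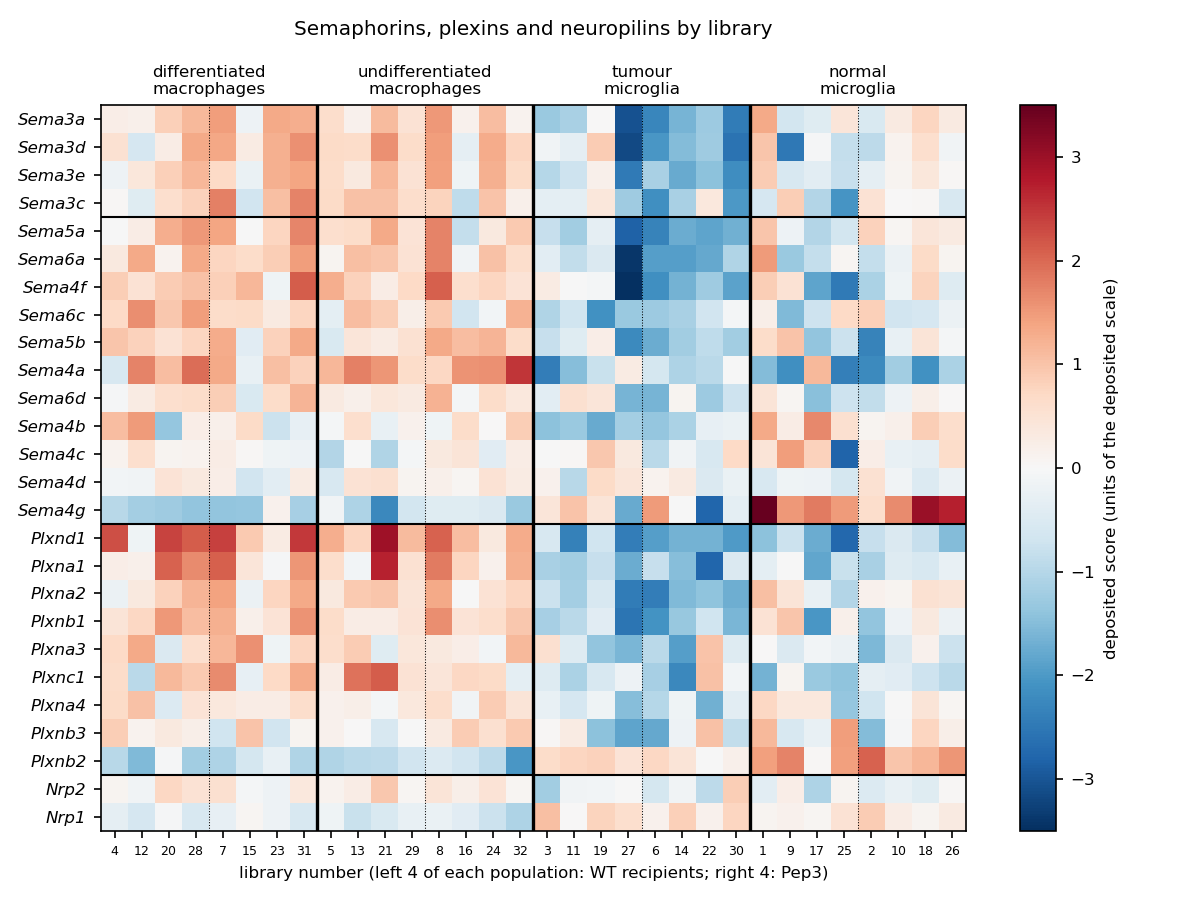
Deposited score of the 26 genes (down the page) in each of the 32 libraries (across), red above and blue below the mean of the gene; in each population the left 4 libraries are from WT and the right 4 from Pep3 mice. Plxnb2, Nrp1 and Sema4g are blue in nearly all macrophage libraries, while most of the other genes are red there and blue in tumour microglia.

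All 4 secreted semaphorins in the table were higher in both macrophage populations than in tumour microglia, and all but Sema3c in undifferentiated macrophages also after library medians were subtracted. Sema3a, a repellent of axons that binds Nrp1, scored -0.17, 0.99 and 1.47 (lowest, median and highest) in differentiated macrophages and 0.12, 0.56 and 1.53 in undifferentiated macrophages, against -3.04, -1.47 and 0.02 in tumour microglia. Every undifferentiated library lay above every tumour microglia library, and the differentiated libraries overlapped with them at 1 end, where tumour microglia library 19 was the highest. Sema3a rose by 2.72 ± 0.37 in differentiated macrophages (limma adjusted p = 1.82e-05) and by 2.70 ± 0.39 in undifferentiated macrophages (limma adjusted p = 3.4e-05). Sema3e, which binds Plxnd1 directly, rose by 2.24 ± 0.33 in differentiated and by 2.48 ± 0.35 in undifferentiated macrophages. For Sema3d, a ligand of neuropilins, the rises were 2.38 ± 0.43 and 2.67 ± 0.45. Sema3c, another neuropilin ligand, had the smallest rises of the 4, 1.74 ± 0.44 and 1.68 ± 0.46. Its rise in undifferentiated macrophages was 1.08 and not called (limma adjusted p = 0.112) without differentiated macrophage library 31, which enters through the terms for the missing directions.

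Of the 11 transmembrane semaphorins, 8 were higher in each macrophage population than in tumour microglia and none was lower. After library medians were subtracted the calls of Sema4a in differentiated, Sema6c in undifferentiated and Sema4b and Sema6d in both macrophage populations were lost. Sema5a, a semaphorin with thrombospondin repeats, scored -0.01, 1.02 and 1.70 in differentiated macrophages and -0.82, 0.61 and 1.72 in undifferentiated macrophages, against -2.83, -1.71 and -0.32 in tumour microglia. The differentiated macrophage and tumour microglia libraries did not overlap, whereas the lowest undifferentiated library, number 16, lay inside the range of tumour microglia. The rise of Sema5a was 2.85 ± 0.35 in differentiated macrophages and 2.57 ± 0.36 in undifferentiated macrophages. Sema6a, a ligand of A-type plexins, rose by 2.57 ± 0.45 and 2.58 ± 0.47, and neither macrophage population overlapped with tumour microglia. Without tumour microglia library 27, its lowest library, the difference of Sema6a in differentiated macrophages was 1.64. Sema4f rose by 2.54 ± 0.50 in differentiated and 2.62 ± 0.52 in undifferentiated macrophages, and by 1.48 and 1.65 without that library. The relative of Sema5a, Sema5b, rose by 1.95 ± 0.42 and 2.04 ± 0.44, with 1.36 in undifferentiated macrophages when differentiated macrophage library 31 was left out.

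Sema4a, a class 4 semaphorin that binds Plxnd1 and B-type plexins, scored -0.55, 1.07 and 1.96 in differentiated macrophages and 0.63, 1.55 and 2.50 in undifferentiated macrophages, against -2.42, -0.86 and 0.29 in tumour microglia. Every undifferentiated library lay above the tumour microglia libraries, and 2 of the differentiated ones, 4 and 15, lay among them. Sema4a rose by 2.74 ± 0.54 in undifferentiated macrophages (limma adjusted p = 0.000488), a call that held without each single library. The rise in differentiated macrophages was 1.55 ± 0.52 (limma adjusted p = 0.0192), but 0.40 without differentiated library 28 and 1.32 without library 7, neither of them called, and 2.51 without tumour microglia library 27. Sema6c rose by 2.03 ± 0.43 and 1.34 ± 0.45 in differentiated and undifferentiated macrophages. Without differentiated library 28 these were 1.09 and 0.76 and not called, and the undifferentiated call was also lost without differentiated library 31, tumour microglia library 27 or undifferentiated library 21 or 8, at 1.18 to 1.32. Sema6d, a ligand of Plxna1, rose by 1.22 ± 0.38 and 1.28 ± 0.40, and Sema4b by 1.16 ± 0.42 and 1.33 ± 0.44. Single libraries also ended these calls: for Sema6d, tumour microglia 27 (0.80 and 0.89), differentiated 31 (0.87 and 0.75) and undifferentiated 8 (0.92 and 1.06), and in differentiated macrophages also differentiated 28 (1.38). For Sema4b they were tumour microglia 27 (1.07 and 1.25) and undifferentiated 29 (0.97 and 1.14), and in differentiated macrophages also normal microglia 1, differentiated 12, 28, 4, 15 and 7, and tumour microglia 14 and 6, at 0.94 to 1.38.

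The remaining transmembrane semaphorins did not pass in either macrophage comparison. Sema4d, the CD100 antigen of leukocytes, differed by 0.03 ± 0.33 in differentiated and 0.30 ± 0.35 in undifferentiated macrophages from tumour microglia. Its scores had medians of 0.07, 0.24, 0.14 and -0.19 in differentiated macrophages, undifferentiated macrophages, tumour microglia and normal microglia. Sema4c, a ligand of Plxnb2, differed by 0.26 ± 0.48 and -0.19 ± 0.50. The signs of Sema4d, Sema4c in differentiated macrophages, Nrp2, and Plxnb3 in differentiated macrophages turned negative when library medians were subtracted, and none was called there either. Sema4g, also a ligand of Plxnb2, differed by -0.75 ± 0.60 and -0.63 ± 0.63, and was called at -1.83 in differentiated macrophages without tumour microglia library 27.

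**Figure D2:**
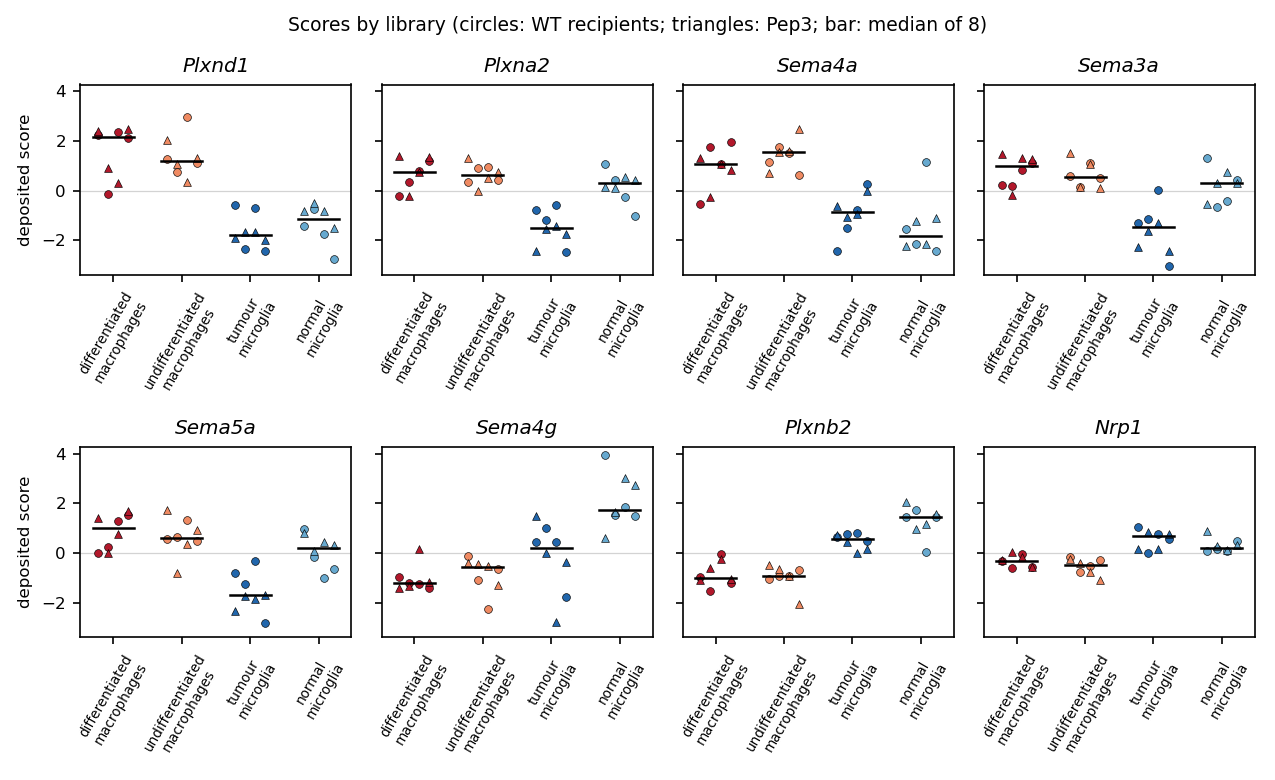
Deposited scores (vertical axis) of 8 genes in the 32 libraries, by population, with circles for WT and triangles for Pep3 mice and a bar at the median of 8. Plxnd1 and Plxna2 have their lowest medians in tumour microglia, whose libraries overlap with neither macrophage population, and Plxnd1 is low in normal microglia too. Plxnb2 and Nrp1 are lower in macrophages, and Sema4g is highest in normal microglia.

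Plxnd1, the receptor of Sema3e and Sema4a, had the largest rise of the family in both macrophage populations. It scored -0.15, 2.18 and 2.47 in differentiated macrophages and 0.34, 1.19 and 2.96 in undifferentiated macrophages, against -2.42, -1.79 and -0.56 in tumour microglia. No macrophage library reached down to the tumour microglia range. Plxnd1 rose by 3.52 ± 0.43 in differentiated macrophages (limma adjusted p = 1.01e-05), more than 99.7% of all genes, and by 3.39 ± 0.45 in undifferentiated macrophages (limma adjusted p = 2.06e-05). Among the A-type plexins, Plxna1, a receptor of Sema6d that joins Trem2 in myeloid cells, rose by 2.48 ± 0.48 and 2.62 ± 0.51. Plxna2, a receptor of Sema6a, rose by 2.47 ± 0.31 and 2.55 ± 0.32, and its libraries did not overlap with tumour microglia in either population. Its scores were -0.20, 0.77 and 1.40 in differentiated macrophages and -0.01, 0.63 and 1.33 in undifferentiated macrophages, against -2.46, -1.48 and -0.57 in tumour microglia.

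Plxnb1, a receptor of Sema4d, rose by 2.42 ± 0.43 in differentiated and by 2.30 ± 0.45 in undifferentiated macrophages, and by 1.47 in the undifferentiated ones without differentiated library 31. Smaller rises were seen for Plxna4, at 1.22 ± 0.38 and 1.19 ± 0.40, and for Plxnc1, the receptor of Sema7a, at 1.28 ± 0.50 and 1.58 ± 0.52. Neither was called after library medians were subtracted, nor was Plxna3. As deposited, Plxna3 rose in differentiated macrophages by 1.35 ± 0.47 and did not pass in undifferentiated macrophages, at 1.14 ± 0.49 (limma adjusted p = 0.0661), and a difference between the 2 did not pass. Single libraries ended these calls too. For Plxna4 they were tumour microglia 27 (0.85 and 0.86) and undifferentiated 29 (0.85 and 0.80), and in undifferentiated macrophages also differentiated 31 (0.97). The call of Plxna3 in differentiated macrophages was lost without tumour microglia 27 (0.73) or 14, differentiated 28, 4 or 31, or undifferentiated 29, at up to 1.69. In undifferentiated macrophages it was called without tumour microglia 3 (1.40) or 22 (1.32) or undifferentiated 21 (1.46). Plxnc1 lost its call in undifferentiated macrophages without differentiated 31 (1.53) or undifferentiated 21 (1.38). In differentiated macrophages it lost the call without normal microglia 10 or 2, differentiated 20, 28, 4, 23, 31 or 7, tumour microglia 11, 19, 14 or 6, or undifferentiated 29, at 0.99 to 1.41. Plxnb3 differed by 0.66 ± 0.50 and 1.02 ± 0.52 and was not called.

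Plxnb2, a B-type plexin that binds Sema4c, Sema4d and Sema4g, went the other way. It scored -1.53, -1.01 and -0.04 in differentiated macrophages and -2.05, -0.91 and -0.49 in undifferentiated macrophages, against -0.01, 0.56 and 0.82 in tumour microglia. All 8 libraries of each macrophage population lay below all 8 of tumour microglia, though the gap to the differentiated ones was narrow. Plxnb2 fell by 1.22 ± 0.34 in differentiated macrophages (limma adjusted p = 0.00636) and by 1.68 ± 0.36 in undifferentiated macrophages (limma adjusted p = 0.000882). Without differentiated library 28 the difference for differentiated macrophages was -1.06 and not called (limma adjusted p = 0.104).

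Nrp1, the receptor of Sema3a and a co-receptor of VEGF-A, also fell. Its scores were -0.60, -0.31 and 0.06 in differentiated macrophages and -1.09, -0.47 and -0.14 in undifferentiated macrophages, against 0.01, 0.67 and 1.06 in tumour microglia. Every undifferentiated library lay below tumour microglia, and the differentiated ones touched the lower end of their range. Nrp1 fell by 1.26 ± 0.31 in undifferentiated macrophages (limma adjusted p = 0.00238) and by 0.79 ± 0.29 in differentiated macrophages (limma adjusted p = 0.032). The differentiated call was close to the threshold and was lost, at -0.84 to -0.72, without any of differentiated 28, 4, 23, 31 or 7, tumour microglia 19, 27, 3, 14 or 30, or undifferentiated 29. After library medians were subtracted the differences were -1.46 in differentiated and -1.98 in undifferentiated macrophages, both called. Nrp2, the neuropilin that also binds VEGF-C, did not pass, with differences of 0.48 ± 0.36 and 0.68 ± 0.37.

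Across the family, the libraries of differentiated macrophages lay wholly above those of tumour microglia for 7 members, where 7.09% of all genes did so, and wholly below for Plxnb2, where 1.31% did. For undifferentiated macrophages 8 members lay wholly above (6.77% of all genes) and Plxnb2 and Nrp1 wholly below (1.31%). Calls held without each single library for 12 members in differentiated macrophages, all of them rises, and for 14 in undifferentiated macrophages, 12 rises and 2 falls. Without differentiated library 28, 13 members were called in differentiated macrophages. The labels name 4 experiments, and each macrophage population shares experiments 3 and 4 with tumour microglia of the other recipient strain. Within experiment 3 the mean score of Plxnd1 was 3.45 higher in differentiated macrophages and 3.33 higher in undifferentiated macrophages than in tumour microglia, and within experiment 4 it was 3.02 and 2.70 higher. The means of all 21 and all 20 called members kept their sign within both experiments. The members were called on these same libraries, so this is no separate check of the calls. No member was called when the fit held only WT or only Pep3 recipients, with 5 and 6 members at an unadjusted p below 0.05 for differentiated and 4 and 7 for undifferentiated macrophages. None was called either without the 9 libraries that kept under 50% of their variation when the terms for missing directions stayed in, and 16 and 17 were called without those libraries and those terms. The fits without calls kept the terms on fewer libraries, with fewer residual degrees of freedom than the full fit. Their lack of calls does not show that a difference was absent.

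**Figure D3:**
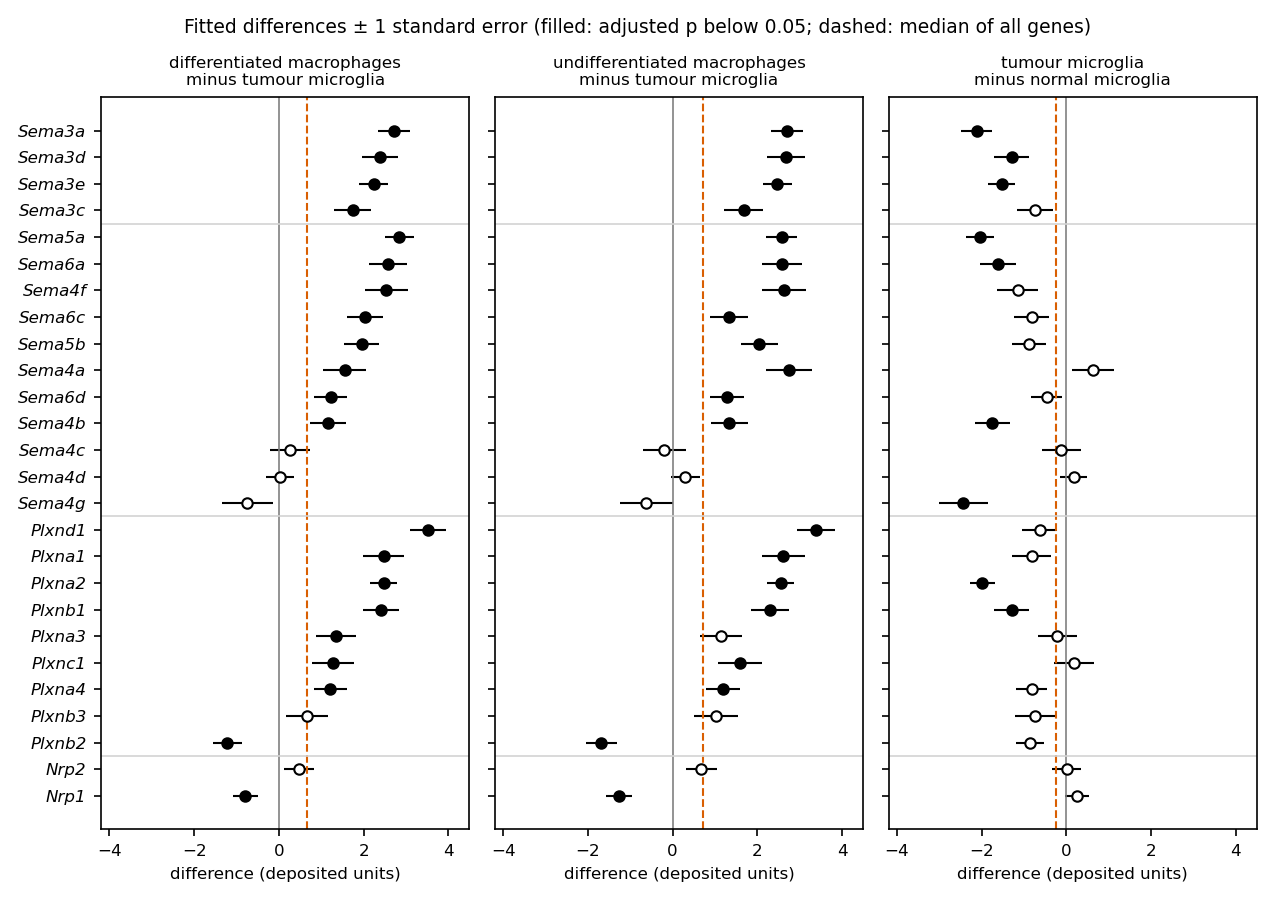
Fitted difference of scores ± 1 standard error (horizontal axis, 8 libraries against 8) for the 26 genes in the 3 comparisons, with filled points for limma adjusted p below 0.05 and a dashed line at the median of all 17586 genes. The dashed line lies at 0.65 and 0.71 in the macrophage panels and at -0.25 in the microglia panel, and Plxnd1, Plxnb2 and Nrp1 lie far to either side of it in the macrophage panels.

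The 300 bases around the start of a gene (250 before it and 50 after) are printed below for the ligand and receptor with large rises in undifferentiated macrophages, Sema4a and Plxnd1, and for Plxnb2 and Nrp1, the called receptors that fell. The sequences are from RefSeq for build GRCm38.p6, in which 23 of the 26 members were matched. They read 5′ to 3′ on the strand of the gene, and capitals mark GAGGAA or its reverse complement, the core of sites bound by PU.1, the lineage factor of myeloid cells.
Plxnd1 at chr6:115994956-115995255, minus strand: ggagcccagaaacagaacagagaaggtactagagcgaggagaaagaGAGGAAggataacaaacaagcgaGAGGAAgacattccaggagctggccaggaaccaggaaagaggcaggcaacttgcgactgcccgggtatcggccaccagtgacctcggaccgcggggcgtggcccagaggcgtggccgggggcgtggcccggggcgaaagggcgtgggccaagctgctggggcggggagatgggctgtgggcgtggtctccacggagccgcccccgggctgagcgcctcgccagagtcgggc
Sema4a at chr3:88461133-88461432, minus strand: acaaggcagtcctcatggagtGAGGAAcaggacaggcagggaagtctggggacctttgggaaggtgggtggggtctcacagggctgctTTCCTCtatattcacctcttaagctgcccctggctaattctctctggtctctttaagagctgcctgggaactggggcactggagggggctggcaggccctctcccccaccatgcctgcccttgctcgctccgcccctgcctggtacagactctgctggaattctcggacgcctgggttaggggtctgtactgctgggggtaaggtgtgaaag
Plxnb2 at chr15:89180739-89181038, minus strand: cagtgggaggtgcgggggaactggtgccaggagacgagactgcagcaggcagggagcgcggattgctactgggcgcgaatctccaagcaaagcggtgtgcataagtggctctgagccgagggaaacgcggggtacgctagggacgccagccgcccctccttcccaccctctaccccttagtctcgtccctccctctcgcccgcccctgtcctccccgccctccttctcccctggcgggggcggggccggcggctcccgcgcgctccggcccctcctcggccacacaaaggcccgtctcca
Nrp1 at chr8:128358823-128359122, plus strand: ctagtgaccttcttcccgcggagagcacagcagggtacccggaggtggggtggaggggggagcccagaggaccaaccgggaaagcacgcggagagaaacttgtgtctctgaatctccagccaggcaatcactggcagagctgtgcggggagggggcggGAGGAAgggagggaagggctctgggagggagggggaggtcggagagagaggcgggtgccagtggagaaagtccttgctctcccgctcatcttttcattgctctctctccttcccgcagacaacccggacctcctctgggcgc
GAGGAA was found on either strand in 8 of the 23 member promoters and in 28.3% of 32851 RefSeq promoters of the same length. It occurred 2 times each in the windows of Plxnd1 and Sema4a, 1 time in that of Nrp1 and not in that of Plxnb2. The AP-1 motif TGANTCA was in 1 member promoter, that of Sema4c (7.81% of all promoters), and the interferon-stimulated response element in that of Plxnc1 (3.44%). ACGTG, a form of the core of the hypoxia response element, which also lies within the E-box CACGTG, was in 5 (19.6%). Other forms of that core were not searched. These are matches of letters in 1 window per gene and were not tested as binding sites.

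Tumour microglia differed from normal microglia by falls in 9 members and rises in none, where 12% of all genes fell and 4.66% rose (16.7% in either direction). The falls took in 3 of 4 secreted semaphorins, 4 transmembrane semaphorins and 2 plexins. The median difference was -0.82 for the members and -0.25 for all genes, and 7 members fell after library medians were subtracted, where 7.60% of all genes fell and 7.72% rose. Tumour and normal microglia share no experiment, so the tumour, the graft and the experiment cannot be told apart here. Every member that fell here except Sema4g was also called higher in both macrophage populations. Those rises were measured against the same tumour microglia libraries, so the falls and the rises are not independent. Of these members, Sema4b alone had lower medians in both macrophage populations than in normal microglia, 0.20 and 0.09 against 0.59. Macrophages were not tested against normal microglia.

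Sema3a scored -3.04, -1.47 and 0.02 in tumour microglia, against -0.64, 0.31 and 1.33 in normal microglia. All tumour libraries except number 19 lay below the normal range. Sema3a fell by 2.12 ± 0.36 (limma adjusted p = 0.000619), Sema5a by 2.03 ± 0.34 (limma adjusted p = 0.000579) and Plxna2 by 1.98 ± 0.30 (limma adjusted p = 0.000293). Of these, the call of Plxna2 held without each single library, the only such member in this comparison. Without normal microglia library 1, Sema3a and Sema5a differed by -1.82 and -1.98 and were not called. Sema4b, a class 4 transmembrane semaphorin, scored -1.76, -1.25 and -0.22 in tumour microglia, against 0.10, 0.59 and 1.67 in normal microglia. All tumour libraries lay below all normal ones, which was so for this member alone and for 0.762% of all genes, while no member and 1.01% of all genes lay wholly above. Sema4b fell by 1.75 ± 0.41 (limma adjusted p = 0.00602), and leaving out normal microglia 18 (-1.54), normal microglia 1 (-1.23) or tumour microglia 27 (-1.66) ended the call.

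Sema4g had the largest fall, by 2.44 ± 0.58 (limma adjusted p = 0.00704). Its scores were -2.78, 0.21 and 1.50 in tumour microglia, against 0.62, 1.75 and 3.92 in normal microglia. The highest value was that of normal microglia library 1, which kept 33.1% of its own variation, and without it the difference was -0.59 and not called. The call was also lost without normal microglia 10 (-1.66), 18 (-1.44) or 26 (-2.17) or tumour microglia 27 (-1.43). Sema6a fell by 1.62 ± 0.43, and by 0.32 without normal microglia library 1, by 1.01 without library 18 and by 0.75 without tumour microglia library 27, none of them called. It was also not called without normal microglia 10 (-1.91) or 26 (-1.56). Sema3e fell by 1.52 ± 0.32, a call lost without normal microglia 10, 18 or 1 or tumour microglia 27, at -1.31 to -1.21. Sema3d and Plxnb1 each fell by 1.30, ± 0.42 and ± 0.41, and neither was called after library medians were subtracted. Without tumour microglia library 27 they differed by -0.64 and -0.82, and without normal microglia library 18 by -0.76 each. Sema3d differed by -0.71 without normal microglia library 10 and by -0.66 without library 1. Sema3d also lost its call without normal microglia 26 or 25 or tumour microglia 11, 22, 30 or 6, at -1.43 to -1.15, and Plxnb1 without normal microglia 10, 26, 1, 25 or 9 or tumour microglia 14 or 6, at -1.51 to -1.10.

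Plxnb2 and Nrp1, the members higher in tumour microglia than in macrophages, did not pass between tumour and normal microglia, at -0.85 ± 0.33 and 0.25 ± 0.28. The scores of Plxnb2 were -0.01, 0.56 and 0.82 in tumour microglia, against 0.05, 1.44 and 2.07 in normal microglia, and the populations overlapped through normal microglia library 17, without which Plxnb2 differed by -1.03 and was called. Other members called only on leaving out a library were Sema4f, without normal microglia 2 (-1.83) or 17 (-1.41), Sema5b, without 2 (-1.52) or 17 (-1.16), and Sema6c, without 10 (-1.96). Plxnd1 was low in both microglial populations, at a median of -1.79 in tumour and -1.12 in normal microglia, and differed by -0.63 ± 0.42 without passing. Sema4a differed by 0.63 ± 0.50. The number of members called was 5 without normal microglia library 10 or 26, 3 without library 18, 1 without library 1 and 3 without tumour microglia library 27. It was 0 in WT or Pep3 mice alone, with 2 and 4 members at an unadjusted p below 0.05, and 0 without the 9 libraries that kept under 50% of their variation, with or without terms for missing directions. The fits to WT or Pep3 mice alone had fewer residual degrees of freedom than the full fit.

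Differentiated and undifferentiated macrophages were not told apart by any member. None was called by limma and none had an unadjusted p below 0.05, where 0.0114% of all genes, 2 genes, were called, both lower, and 491 genes had an unadjusted p below 0.05. The median difference was -0.07 for the members and -0.05 for all genes. The medians of Sema4a were 1.07 in differentiated and 1.55 in undifferentiated macrophages and those of Plxnd1 were 2.18 and 1.19, with wide overlap of the libraries. A test of any difference among the 4 populations called 22 of the 26 members, where 55.5% of all genes were called. The members not called were Sema4c, Sema4d, Nrp2 and Plxnb3. Whether a population difference itself differed between WT and Pep3 mice was called for 5 members in tumour against normal microglia, where 5.03% of all genes were called, and for 1 in differentiated macrophages against tumour microglia (0.449%). It was called for none in undifferentiated macrophages against tumour microglia (0.00569%) or between the macrophage populations (0%), with 10 and 0 members at an unadjusted p below 0.05. The libraries of the macrophage populations overlapped for every member, and lay wholly apart for 0.00569% of all genes.

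**Figure D4:**
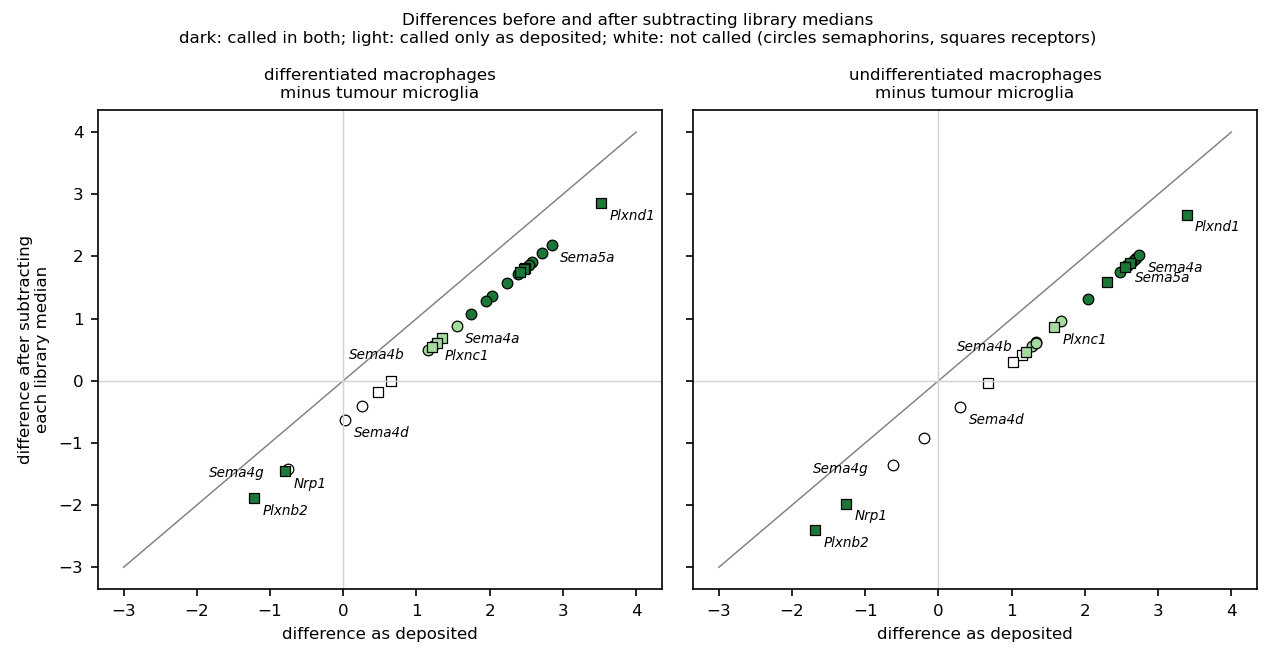
Fitted difference of each member as deposited (horizontal axis) and after subtracting the median of each library (vertical axis), both in deposited units, for the macrophage populations against tumour microglia; circles are semaphorins and squares receptors. All points lie below the diagonal, the light points such as Plxnc1 and Sema4b lose their call, and the dark points, Plxnd1, Plxnb2 and Nrp1 among them, keep it.

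Genes that work with the family were followed through a list of 44 co-receptors, VEGF-family ligands of neuropilins and signalling proteins, of which 39 were in the table. In differentiated macrophages 12 rose and 2 fell relative to tumour microglia, where 37% of all genes rose and 6.35% fell. In undifferentiated macrophages 15 rose and 5 fell, where 36.7% of all genes rose and 5.19% fell. The median difference of the partners, 0.20 and 0.42, was below that of all genes, 0.65 and 0.71. After library medians were subtracted 8 partners rose and 13 fell in differentiated macrophages (19.8% and 19.2% of all genes). The same step gave 5 rises and 11 falls in undifferentiated macrophages (16.7% and 16.3% of all genes). Vegfa, which encodes the VEGF-A bound by Nrp1, rose by 2.24 ± 0.67 in differentiated and 2.54 ± 0.70 in undifferentiated macrophages, and Pgf, which encodes the related placental growth factor, by 2.23 ± 0.42 and 2.38 ± 0.43. Vegfa scored -0.91, 1.52 and 2.40 in differentiated macrophages and -0.52, 1.10 and 3.19 in undifferentiated macrophages, against -3.32, -1.20 and 1.51 in tumour microglia, with overlap in both. Flt4, the VEGF-C receptor, rose by 2.12 ± 0.43 and 2.42 ± 0.45. Trem2, a myeloid receptor that joins Plxna1, fell by 1.77 ± 0.29 and 2.07 ± 0.30. Its scores were -1.71, -0.99 and -0.57 in differentiated macrophages and -1.69, -1.09 and -0.69 in undifferentiated macrophages, against 0.29, 0.60 and 1.16 in tumour microglia. No library of either macrophage population reached those of tumour microglia. The tyrosine kinase Fes, which acts downstream of plexins, fell by 1.77 ± 0.41 in differentiated macrophages.

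Cd72, a receptor of Sema4d, rose in tumour microglia relative to normal microglia by 3.12 ± 0.36 (limma adjusted p = 1.82e-05). As deposited it was the one partner to rise and 4 fell, where 4.66% of all genes rose and 12% fell. After library medians were subtracted 5 partners rose and 3 fell (7.72% and 7.60% of all genes). Cd72 scored 0.33, 1.44 and 1.93 in tumour microglia, against -2.37, -1.76 and -1.15 in normal microglia, with no overlap. In undifferentiated macrophages Cd72 fell by 1.59 ± 0.39 relative to tumour microglia, and Sema4d itself did not pass in any comparison. Flt4 fell by 1.42 ± 0.41 and Itga1, an integrin subunit, by 1.39 ± 0.29 in tumour relative to normal microglia. No partner was called between the macrophage populations.

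Markers of several other cell types were higher in tumour macrophages than in tumour microglia, in a comparison where 37% and 36.7% of all genes rose. Of 5 endothelial markers in the table, 4 rose in differentiated and 3 in undifferentiated macrophages relative to tumour microglia, and 2 fell in tumour relative to normal microglia. Mean scores of that list ran from -0.09 to 1.06 in differentiated macrophages, 0.03 to 0.97 in undifferentiated macrophages, -1.68 to -0.45 in tumour microglia and -1.01 to 0.28 in normal microglia. Of 5 neuronal markers 4 rose in each macrophage population and 2 fell in tumour relative to normal microglia, with Snap25, a synaptic protein, higher by 1.41 ± 0.49 and 1.74 ± 0.51 and lower by 1.51 ± 0.47. List means were -0.49 to 0.87 in differentiated macrophages, -0.02 to 0.78 in undifferentiated macrophages, -1.64 to -0.00290 in tumour microglia and -0.84 to 0.62 in normal microglia. Of 5 astrocyte markers 4 rose in each macrophage population, and of 4 markers of oligodendrocyte precursors or glioma 3 rose, Pdgfra by 1.93 ± 0.42 and 2.32 ± 0.43. None of 4 oligodendrocyte markers was called in either macrophage comparison. Of 4 dendritic cell markers 2 and 1 rose, and of 3 B cell markers 2 rose in each and 1 fell in undifferentiated macrophages, while the single T cell marker rose in differentiated macrophages and the single neutrophil marker in both. After library medians were subtracted, 2 endothelial, 1 neuronal and 2 astrocyte markers rose in each macrophage population, 3 and 2 markers of oligodendrocyte precursors or glioma, 1 and 0 of dendritic cells, 1 and 2 of B cells, 1 and 0 of T cells and 0 of neutrophils in differentiated and undifferentiated macrophages. The same step left 1 dendritic cell marker lower in differentiated macrophages, 1 oligodendrocyte marker lower in undifferentiated macrophages and 1 B cell marker lower in each. In tumour relative to normal microglia the markers went both ways: Slc1a2 of astrocytes and Pdgfra also fell, by 1.45 ± 0.37 and 1.34 ± 0.40, but Aldh1l1 of astrocytes, Cnp of oligodendrocytes and Xcr1 of dendritic cells rose, by 2.12 ± 0.56, 1.70 ± 0.36 and 1.66 ± 0.46. With library medians subtracted 2 endothelial markers fell there, as did 1 marker each of neurons, astrocytes and oligodendrocyte precursors or glioma. In that setting 1 marker each of astrocytes, oligodendrocytes and dendritic cells rose, where 7.60% of all genes fell and 7.72% rose. Scores of this kind have no level of absence, so it could not be read whether any marker was undetected. The part of these cells in the semaphorin and plexin differences was not tested, and in bulk samples fewer cells of a type and less RNA per cell cannot be told apart.

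The ends of the ranges were often held by the same libraries. Tumour microglia library 27, which kept 38.96% of its own variation, was the lowest of its population for 11 of the 26 members. Normal microglia library 1, undifferentiated macrophage library 8 and differentiated macrophage library 31 were the highest for 10, 10 and 9 members, and kept 33.1, 20.01 and 16.9%. Tumour microglia library 19, which kept 89.0%, was the highest for 11 members.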

How the data were processed

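RNA-seq values of 32 sorted-cell libraries were analysed, 8 for each of 4 populations. Per the labels' protocols, a Clontech SMART-Seq v4 kit for low RNA input gave the cDNA, and FastQC, STAR 2.5.0a, RSEM 1.3.0 and build mm9 are named in the submitters' processing notes. The authors deposited 1 table of 17586 genes whose name calls it normalised counts. The deposited values are signed scores, from -6.50 to 6.92, and the scale and the step that centred them are not given in the sources used here. Every gene averaged 0 within each recipient strain, and 11 of 32 sample directions carried no variation. Depth per library is unknown, so no interval for low values could be given. No library was a copy of another (highest correlation 0.889).

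All genes were fitted together with limma 3.58.1 in R 4.3.3, as cell means of population by recipient strain plus the 11 directions as covariates (15 residual degrees of freedom). Variances were moderated with robust empirical Bayes, p-values were two-sided, and calls had a Benjamini-Hochberg adjusted p below 0.05. Differences were averaged over recipient strains. The fit was run on simulated data, with independent normal noise of equal spread in every library before the missing directions were taken out. That setting had no libraries of uneven quality and no correlated libraries, so it does not check the calls against these. No filter or pseudocount was applied. The family, the lists of partners and markers, and the tests were chosen with earlier results of these data known. All 26 members are described, and of the partners those with the most extreme called differences are named. Alternatives covered the covariates, library medians, libraries that kept under 50% of their variation, array weights, robust variances, the libraries fitted, recipient strains, each library left out in turn and a block on library numbers. Promoters of 300 bases came from RefSeq for GRCm38.p6, the most upstream one for each gene. Protein sequences were not used here.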

Additional observations from a re-analysis of the deposited data

Results flagged for a closer look

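Single libraries stood apart from the other 7 of their population in 9 of 104 combinations of member and population, by Dixon's test at the 95% level. Chance marks about 1 in 20 such groups. None of the 9 libraries was among those that kept under 50% of their variation. In differentiated macrophages, Sema4g scored 0.16 in library 23 where the next highest was -0.98, and Sema5b scored -0.39 in library 15 where the next lowest was 0.52. In undifferentiated macrophages, Plxnb2 was low in library 32, at -2.05 with the next at -1.06, and Sema3c in library 16, at -0.90 with the next at 0.17. Sema4d was low in undifferentiated library 5, at -0.55 beside 0.08, and Nrp2 high in library 21, at 0.94 beside 0.48. In normal microglia, Sema4a was high in library 17, at 1.14 with the next at -1.11. Sema4c was low in normal library 25, at -2.80 beside -0.31, and Sema4d high in library 2, at 0.53 beside -0.13.

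The difference between tumour and normal microglia itself differed between WT and Pep3 mice for 5 members, where 5.03% of all genes were called. Of the 884 genes called in the whole table, 812 had a positive value as WT minus Pep3, as did all 5 members. Among normal microglia, the Pep3 libraries 10, 18 and 26 kept 8.60, 23.9 and 22.8% of their own variation, and WT library 1 kept 33.1%. As WT minus Pep3, it was 5.36 for Sema3d (limma adjusted p = 0.0254), 4.80 for Sema5a (0.0177), 4.58 for Sema3c (0.0492), 3.55 for Sema3e (0.0456) and 3.48 for Plxna2 (0.0373). For Sema5a the fitted difference was 0.37 in WT and -4.44 in Pep3 mice, and for Sema3d 1.38 in WT and -3.97 in Pep3 mice. The deposited means of Sema5a were -1.30 in tumour and -0.22 in normal microglia of WT mice, and -1.91 in tumour and 0.40 in normal microglia of Pep3 mice, both with tumour microglia lower. For differentiated macrophages against tumour microglia, Sema3d alone differed, by -5.29 (limma adjusted p = 0.0482, 0.449% of all genes called). Its fitted difference was -0.26 in WT and 5.03 in Pep3 recipients, with deposited means of 0.39 against -0.67 and 1.12 against -1.84. None of these was called without the terms for the missing directions, and strain and experiment cannot be told apart.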

How the results depend on the processing

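The library numbers in the labels run from 1 to 32 once each, so no populations share one. They form 4 runs of 8 with 1 library of each population and strain, which the labels do not tie to a batch. Deviations from group means correlated at -0.00574 on average within runs and 0.00213 between them, so nothing shows a pairing. A replicate block on the runs, added after the data were seen, called 8, 20, 21, 0 and 22 members in the order of tests below and 0 for the recipient difference, where 30 pairs of member and comparison had an unadjusted p below 0.05. It ended the calls of Sema3d between tumour and normal microglia (-1.17) and of Plxna3 in differentiated macrophages (1.19), and Plxna3 was called in undifferentiated macrophages (1.33). With each library left out in turn, the members called were 1 to 12 for tumour against normal microglia, 13 to 21 and 15 to 21 for differentiated and undifferentiated macrophages against tumour microglia, 0 throughout between the macrophage populations, 17 to 22 for any difference and 0 to 8 for the recipient difference. Counts of 9, 21, 20, 0 and 22 were within 1.5 times of themselves without terms for the missing directions, with library medians subtracted and without robust variances. Array weights gave 4 for tumour against normal microglia. Without the libraries under 50%, with terms, 0 members were called in every test, with 7, 7 and 10 at an unadjusted p below 0.05 in the comparisons in the order above, and without terms 0 for tumour against normal microglia. WT and Pep3 mice alone gave 0 in all comparisons, and fits to only the populations compared gave 3, 1 and 0, the 0 with 13 members at an unadjusted p below 0.05. These fits, and those without the libraries under 50% with terms, had fewer residual degrees of freedom than the full fit. A count of 0 there does not show that differences were absent. The recipient difference, 6 calls, fell to 0 without terms, 1 with library medians subtracted, 0 without the libraries under 50% with or without terms, and 2 with array weights. The causes were not tested.

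Signs turned, with no call, in these cases. For tumour against normal microglia, Sema3d was 0.32 and 0.18 without the libraries under 50%, with and without terms, and 3.36 in WT mice, Sema3e 0.25 in WT mice, and Sema4g 2.61 without those libraries with terms and 3.88 in Pep3 mice. For differentiated macrophages against tumour microglia, Plxna4 was -0.79 without those libraries with terms, -0.35 in WT, -1.69 in Pep3 and -0.23 with only the populations compared. Sema3c was -0.23 in WT and Sema6d -0.35 in Pep3 recipients. For undifferentiated macrophages Plxna4 was -0.82, -1.33, -1.62 and -0.23 in the same order, and Sema6d -0.22 without those libraries with terms, -0.22 in Pep3 and -0.017 with only the populations compared. In WT recipients Sema3c was -1.23, Sema4f -0.48 and Sema5b -1.01. Unknown depth limits what can be said of members with few reads.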
